A study of Drosophila melanogaster with 53 samples.

Results

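Loss of foxo in flies that already carried a mutant daw 3' UTR was followed in adult muscle by comparing 3 libraries of daw 3' UTR foxo double mutants with 3 libraries of daw 3' UTR single mutants. All genes of the deposited female table with a mean of at least 10 normalised reads over its 12 libraries were taken, which kept 8271 of the 10222 genes listed. The choice used the mean over all libraries and no difference between groups, although a gene may pass through its level in 1 group. The double mutants were of genotype daw-3'UTRc82/c82; foxoc431/c431 and the single mutants of genotype daw-3'UTRc82/c82, and both were homozygous for the daw 3' UTR allele. The wild type (WT) was line 5905 (w1118). Every group consisted of conventionally cultured females at 3 d after eclosion, kept at 25 °C and 60% humidity, and the tissue was muscle. The series holds 53 samples. The Atg8a mutants of the same table entered the fit only to estimate the spread. For comparison, values are given from another female set with its own WT, in which foxoc431/c431 mutants were set against WT and miR252 foxo double mutants against miR252 mutants, and from axenic foxo mutants and axenic WT, for which the authors' deposited table of comparisons was used. The other female set also held miR252 foxo double mutants heterozygous for a daw mutation (daw-/+). They entered its fit only to estimate the spread, and their values are not given here. The nature of the foxo lesion and the number of independent lines are not given in the sources used here. No label ties a library to animals of its own, so p-values measure the spread between these libraries, which may be technical.

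FoxO is the transcription factor that insulin signalling holds in the cytoplasm. When insulin signalling falls, FoxO enters the nucleus and switches on genes of nutrient sensing, stress defence and growth restraint. Dawdle (daw) is an activin-type ligand of the TGF-beta family. It signals through the receptor Baboon and the Smad protein Smox, is made in muscle and other tissues, and in flies is known as a target that FoxO represses. The alleles used here place loss of foxo on top of a lesion in the untranslated end of the daw transcript.

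The 6 libraries held 2468381 to 3407228 reads on listed genes, and 1 read was worth 0.878 to 1.22 normalised reads, so a value below 10 rests on few reads. The foxo gene (FBgn0038197, chromosome 3R, 14056945 to 14087978, plus strand, dm6) had 594, 600.3 and 659 normalised reads in double mutants, against 438, 435 and 479 in daw 3' UTR mutants and 605, 557 and 369.8 in WT. Its total was higher, not lower, in the double mutants (log2 change 0.45 ± 0.14 SE, limma adjusted p = 0.0271), and this call was lost when any of the 6 libraries other than replicate 3 of the daw 3' UTR mutants was left out (limma adjusted p up to 0.082). In the other set the foxo mutants also had more, with 717, 715 and 828 against 596, 534 and 617 in WT. The sum over the gene therefore does not check the genotype labels, whose lesion is not described. The daw gene (FBgn0031461, chromosome 2L, 2805261 to 2812376, plus strand) had 522, 514 and 419.6 normalised reads in double mutants, 421, 374 and 522 in daw 3' UTR mutants and 296, 322 and 229 in WT. Double and daw 3' UTR libraries overlapped for daw, and the change did not pass (0.15 ± 0.19 on the log2 scale, 95% interval -0.26 to 0.56, limma adjusted p = 0.601). Libraries of a group correlated at 0.973 to 0.983 among double mutants and 0.980 to 0.984 among daw 3' UTR mutants. Replicate 3 of the double mutants lay nearer to the daw 3' UTR libraries, with correlations of 0.944 to 0.955 against 0.917 to 0.931 for replicates 1 and 2, and results that rest on it are given with and without it.

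Of the 8271 genes, 2532 changed (30.6%, limma, Benjamini-Hochberg adjusted p under 0.05 over all genes, no fold minimum). Among them 1192 were higher (14.4%) and 1340 lower (16.2%) in double mutants than in daw 3' UTR mutants. The rises were larger: the median log2 change was 0.81 among genes called higher and -0.64 among those called lower, while the median over all genes was 0.00. A log2 change beyond 2 was reached by 112 rises and 19 falls. The 3 libraries of each group did not overlap for 3742 genes (45.2%), among them 2455 of the called genes. Leaving out replicate 3 of the double mutants gave 2607 calls. Against the same WT, daw 3' UTR mutants differed at 258 genes (3.12%) and double mutants at 2960 (35.8%). These comparisons share libraries, so they are set side by side only.

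**Figure D1:**
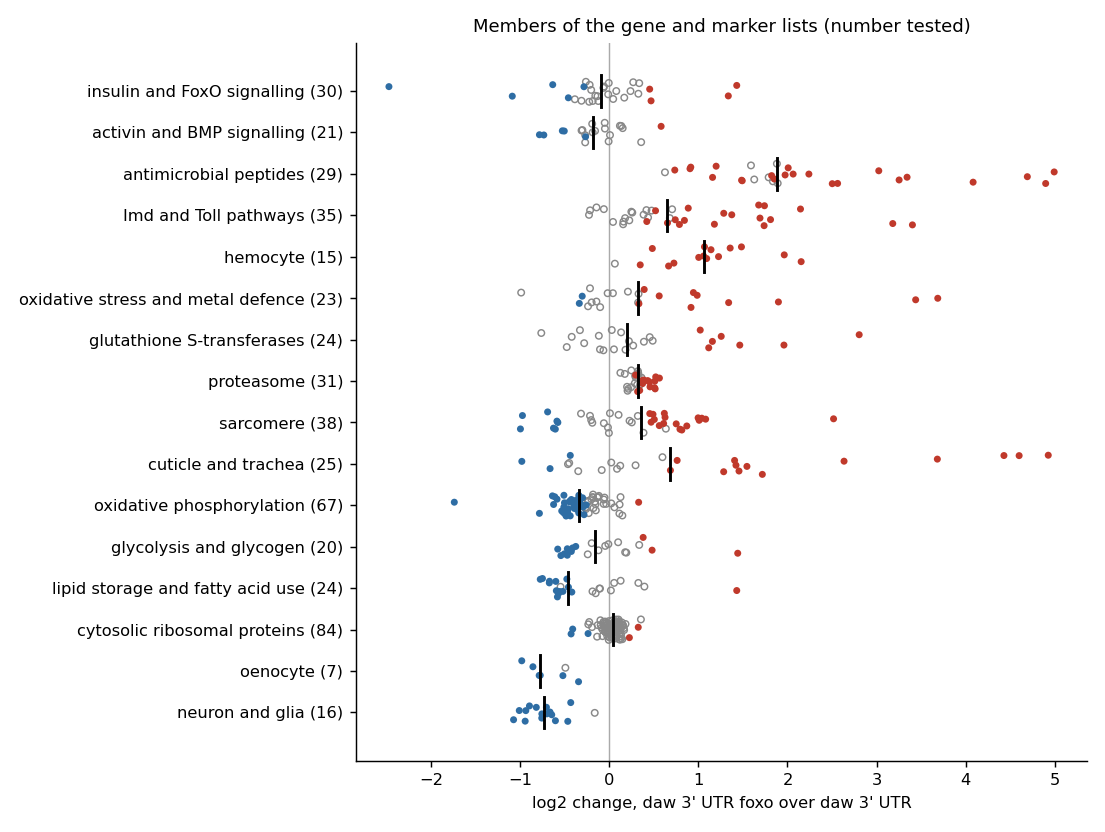
Log2 change (double mutants over daw 3' UTR mutants, horizontal axis) of every tested member of the gene lists, 1 list per row. Filled red points were called higher, filled blue points called lower, open points did not pass, and the black bar is the list median. Antimicrobial peptides (median 1.88) lie to the right, oxidative phosphorylation (median -0.34) and neuron and glia markers (median -0.73) to the left.

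Genes of the insulin and FoxO pathway changed in both directions. Of 30 tested members, 4 rose and 5 fell (median -0.09), a share of 30.0% that is near the 30.6% of all genes. Among ligands, Ilp6, an insulin-like peptide made largely by the fat body, had 16.6, 5.84 and 25.5 normalised reads in double mutants, against 72, 73.6 and 99.2 in daw 3' UTR mutants and 141, 93.3 and 102 in WT. The highest double mutant library lay below every other library, and Ilp6 fell by 2.47 ± 0.35 on the log2 scale (limma adjusted p = 0.000144). ImpL2, a secreted protein that binds insulin-like peptides and holds back the pathway, had 1309.5, 1104 and 707 in double mutants, 387, 337 and 485 in daw 3' UTR mutants and 286, 398 and 329.9 in WT. It rose by 1.34 ± 0.19 (log2, limma adjusted p = 0.000175), with no overlap. Sdr, a secreted decoy of the insulin receptor, fell (-0.63). Inside the cell, Sesn, the sestrin that restrains TOR complex 1 and is a known FoxO target, had 549, 492 and 711 normalised reads in double mutants, against 1117, 1206 and 1377 in daw 3' UTR mutants and 1367, 1239 and 1204 in WT. Every double mutant library was below every other library, and the change was -1.09 ± 0.12 (limma adjusted p = 2.7e-05). The receptor substrate chico (-0.46) and Tsc1 (-0.28), part of the complex that inhibits TOR, fell as well, and Pi3K21B, the regulatory subunit of PI 3-kinase, rose (0.47). Lip4, a lipase gene, rose by 1.43 ± 0.22 (limma adjusted p = 0.000325). Other genes known as FoxO targets or core members did not pass: the receptor InR had a log2 change of -0.19, the translation inhibitor Thor -0.12 and the kinase Akt1 0.08. Between 4 and 8 members of this list were called when single libraries were left out, the fewest without replicate 1 of the daw 3' UTR mutants. Sdr, chico, Tsc1, Pi3K21B and the 3 that did not pass were chosen for naming after their values were seen.

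In the activin and BMP pathway 1 of 21 tested members rose and 5 fell (median -0.19), a called share of 28.6% that is near the 30.6% of all genes. Actbeta, an activin ligand that shares its receptor with daw, had 28.8, 32.1 and 35.1 normalised reads in double mutants, 52.5, 54.3 and 54.6 in daw 3' UTR mutants and 64.4, 56.9 and 53.7 in WT. Its groups did not overlap (log2 change -0.73 ± 0.17, limma adjusted p = 0.0052). The TGF-beta ligand mav changed by -0.78 ± 0.20 and the type II receptor wit by -0.53 ± 0.15 (limma adjusted p = 0.00967 and 0.0184), and each call rested on single libraries. That of mav was lost without replicate 1 of the daw 3' UTR mutants or replicate 2 of the double mutants (adjusted p up to 0.0563 in limma), and that of wit without replicate 3 of the daw 3' UTR mutants or replicate 1 of the double mutants (up to 0.0941). Snoo, a corepressor that binds Smads, fell too (-0.51), as did the glypican dally (-0.27), while the tetraspanin gene lbm rose (0.58). The receptor babo (-0.16 ± 0.11, limma adjusted p = 0.319) and the Smads Smox (-0.19) and Mad (0.36) did not pass. DESeq2 called 3 members of this list in place of 6, as did the fits without replicate 1 of the daw 3' UTR mutants or of the double mutants. The study's other genes Atg8a (-0.12) and AGO1 (-0.11) did not pass either, and mir-252 was not listed in the table. The genes dally, lbm, Smox and Mad were chosen after their values were seen.

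Antimicrobial peptide genes had the highest median change of the lists examined here. Of 29 tested antimicrobial peptide genes, 22 rose and none fell, which is 75.9% called higher against 14.4% of all genes, with a median log2 change of 1.88. CecB, a cecropin active against Gram-negative bacteria, had 169, 121 and 9.66 normalised reads in double mutants, 0, 1.94 and 1.82 in daw 3' UTR mutants and 0 in each library in WT. CecC, another cecropin, had 458, 359 and 66.7 in double mutants, 6.1, 12.6 and 22.7 in daw 3' UTR mutants and 9.99, 7.27 and 1.25 in WT. Both groups were apart for both genes, but replicate 3 of the double mutants was much lower than replicates 1 and 2. The fitted log2 changes were 4.90 ± 0.79 for CecB and 4.08 ± 0.69 for CecC (limma adjusted p = 0.000415 and 0.000571). Near 0 these depend on the pseudocount, and they were 3.00 and 3.49 with a pseudocount of 8. Drs, the antifungal drosomycin and a readout of the Toll pathway, had 6867, 7037 and 2277 normalised reads in double mutants, against 416, 348 and 723 in daw 3' UTR mutants and 1031, 522 and 125 in WT (3.34 ± 0.63 on the log2 scale, limma adjusted p = 0.00118). IM2 (BomS2), a Toll-induced Bomanin peptide, had 4599, 5686 and 2864 in double mutants, 896, 1046 and 1317 in daw 3' UTR mutants and 657, 499 and 322 in WT. Here replicate 3 again had the lowest double mutant value, yet the groups stayed apart (1.97 ± 0.28, limma adjusted p = 0.000148). IM4 (Dso1), a Daisho peptide induced by Toll, rose by 1.82, the drosomycin-like Drsl2 by 4.99 and edin, a secreted peptide induced by infection, by 4.69.

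In other peptide genes replicate 3 of the double mutants reached the daw 3' UTR values. AttC, an attacin induced through the Imd pathway, had 2707, 2021 and 363 normalised reads in double mutants and 298, 611 and 399 in daw 3' UTR mutants, so replicate 3 fell within the daw 3' UTR range. Its change was 1.59 ± 0.68 (limma adjusted p = 0.0935) and did not pass, whereas without that replicate it was 2.48 (limma adjusted p = 0.00487). DptB, a diptericin, had 1497, 1177 and 188 in double mutants and 100.1, 238 and 187 in daw 3' UTR mutants, and passed narrowly with overlapping groups (2.06, limma adjusted p = 0.0471). Along with AttC, the genes AttA, AttB, CecA2, Dpt, Mtk and Dro did not pass, with log2 changes of 0.63 to 1.89, all positive. Without replicate 3 of the double mutants 28 of the 29 genes rose (median 2.54), the exception being Dro. Reads summed over the list were 40203, 44875 and 17751 in double mutants, 6884, 8547 and 10003 in daw 3' UTR mutants and 10436, 5736 and 3304 in WT. AttA and AttB, and the cecropin genes, are close copies whose reads may be split between them. Drs, AttC, DptB and the genes listed as not passing were chosen after their values were seen.

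**Figure D2:**
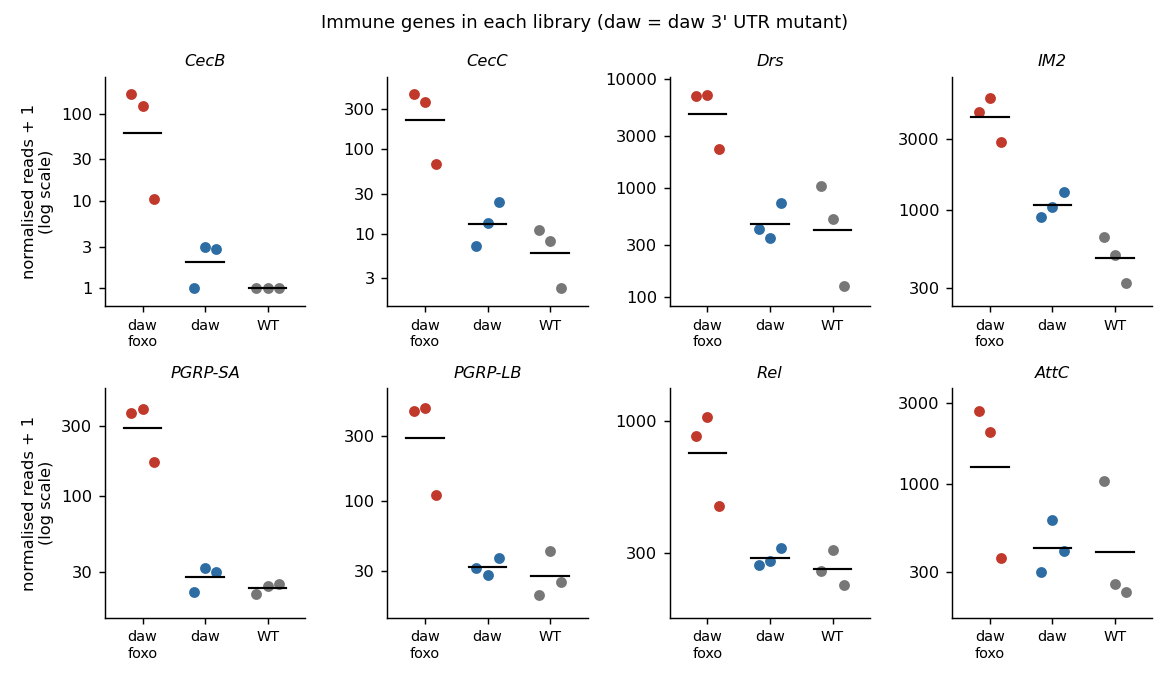
Normalised reads plus 1 (log axis) of 8 immune genes in each library of double mutants, daw 3' UTR mutants and WT, with 1 point per library and a bar at the geometric mean. Double mutants lie highest for CecB, CecC, Drs, IM2, PGRP-SA, PGRP-LB and Rel, and their replicate 3 is the lowest of the 3, falling within the daw 3' UTR range for AttC.

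Receptors, proteases and regulators upstream of these peptides rose with them. Of 35 tested Imd and Toll pathway genes, 18 rose and none fell (median 0.65), which is 51.4% called higher against 14.4% of all genes. Without replicate 3 of the double mutants 20 rose. PGRP-SA, a secreted sensor of Gram-positive peptidoglycan for Toll, had 370.3, 393 and 169 normalised reads in double mutants, against 20.8, 31 and 29.1 in daw 3' UTR mutants and 20, 23 and 23.7 in WT. The groups were far apart (3.40 ± 0.27 on the log2 scale, limma adjusted p = 1.03e-06). PGRP-LB, an amidase that breaks down peptidoglycan and dampens Imd signalling, had 466, 483 and 109 in double mutants and 30.5, 27.1 and 36.4 in daw 3' UTR mutants (3.18 ± 0.46, limma adjusted p = 0.000162). The Toll ligand spz rose by 1.28 and nec, a serpin that restrains the cascade upstream of Toll, by 1.69. The receptor Tl (0.79), the protease SPE that cleaves spz (0.65), the inhibitor cact (0.74) and Rel (1.38), through which Imd signalling acts on its targets, rose. The adaptor imd (0.71, limma adjusted p = 0.0585), the factor Dif (0.18), the caspase Dredd (0.04) and the kinase Tak1 (-0.14) did not pass. Tep1, a thioester protein related to complement, had 264, 178 and 51.8 normalised reads in double mutants and 4.88, 13.6 and 8.19 in daw 3' UTR mutants (3.88 ± 0.56, limma adjusted p = 0.000175). The genes Tl, SPE, cact, Rel, imd, Dif, Dredd and Tak1 were chosen after their values were seen.

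In the JAK-STAT pathway 3 of 11 tested genes rose and 1 fell (median 0.14), so 36.4% were called against 30.6% of all genes. Socs36E, a feedback inhibitor and standard target of the pathway, had 411, 391 and 174 normalised reads in double mutants, 59.8, 48.5 and 78.2 in daw 3' UTR mutants and 78.8, 71.5 and 60 in WT (2.30 ± 0.28, limma adjusted p = 5.44e-05). The receptor gene dome rose (0.88) and so did et (0.77), which encodes a short receptor that dampens signalling, while the kinase hop fell (-0.52). The call of hop was lost without replicate 1 of the double mutants and that of et without their replicate 2 or 3 or replicate 3 of the daw 3' UTR mutants (limma adjusted p up to 0.0534 and 0.14). Among 12 genes of the JNK and damage response 4 rose and none fell (median 0.20), a share of 33.3% that is near that of all genes. They were Gadd45, a damage-induced stress gene (1.98), the matrix metalloprotease Mmp1 (0.76), the factor Ets21C (1.55) and the TNF ligand egr (0.35), and the call of Ets21C was lost without any library but the 2 replicates numbered 3, and that of egr without any but replicate 3 of the double mutants (limma adjusted p up to 0.122 and 0.1).

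Markers of hemocytes, the blood cells of the fly, rose together with the immune genes. Of 15 tested markers 14 rose and none fell (median 1.07), with srp the exception (0.06). That is 93.3% called higher against 14.4% of all genes. Cg25C (Col4a1), a collagen IV chain that hemocytes and fat body secrete, had 4408, 3712 and 3881 normalised reads in double mutants, against 1653, 1506 and 1516 in daw 3' UTR mutants and 1694, 1698 and 1354 in WT. It rose by 1.36 ± 0.11 (log2, limma adjusted p = 1.02e-06). The phagocytic receptor eater had 164, 154 and 132 in double mutants and 51.3, 52.3 and 54.6 in daw 3' UTR mutants (1.48 on the log2 scale). PPO2, the prophenoloxidase of crystal cells, had 1719.8, 2659 and 1534 in double mutants and 446, 501 and 527 in daw 3' UTR mutants (1.96). The other collagen IV chain vkg rose by 1.23. Summed hemocyte marker reads were 21214 to 21604 in double mutants, 10584 to 11259 in daw 3' UTR mutants and 9862 to 10782 in WT. In these sums replicate 3 of the double mutants did not stand apart, unlike in the peptide genes. In bulk muscle, more or fewer cells of a type and more or less RNA per cell cannot be told apart, and the part of hemocyte markers in the immune result was not tested.

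Structural genes of the cuticle gave several of the largest rises. Of 25 tested cuticle and trachea genes 13 rose and 3 fell (median 0.69), so 64.0% were called against 30.6% of all genes. The cuticle protein gene Cpr92F had 282, 93.4 and 82.5 normalised reads in double mutants and 8.55, 1.94 and 1.82 in daw 3' UTR mutants. Its double mutant values differed among themselves by a wide margin but lay above every daw 3' UTR value (4.93 ± 0.53, limma adjusted p = 1.72e-05). Cpr97Ea (4.60), Cpr62Bc (4.43) and Acp65Aa (3.99), further chitin-binding cuticle proteins, rose over values near 0 in daw 3' UTR mutants. With a pseudocount of 8 the log2 changes of these 4 genes were 2.59 to 3.56. Cpr100A (2.64) and serp, a chitin deacetylase of the trachea (1.41), rose too, while TwdlG (-0.98) and Cpr62Bb (-0.66), named after their values were seen, fell. Cda9, another chitin deacetylase gene, was among the 10 largest falls (fell by 2.02 on the log2 scale). Summed cuticle and trachea marker reads were 4013 to 6013 in double mutants, 2719 to 3107 in daw 3' UTR mutants and 3040 to 3432 in WT.

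Of 24 glutathione S-transferase genes 7 rose and none fell (median 0.20), a called share of 29.2% that is near the 30.6% of all genes. GstE1 had 1926, 1508 and 864 normalised reads in double mutants, against 169.7, 179 and 238 in daw 3' UTR mutants and 134, 124 and 132 in WT, the largest rise of the family (2.81 ± 0.23, limma adjusted p = 1.37e-06). GstS1, a sigma-class transferase of muscle, had 6643, 3676 and 4248 in double mutants and 3031, 1759.8 and 1907 in daw 3' UTR mutants (1.12 ± 0.24, limma adjusted p = 0.0031). Of 23 genes of oxidative stress and metal defence 10 rose and 2 fell (median 0.32), so 52.2% were called. The metallothionein gene MtnD had 122, 108 and 36.9 normalised reads in double mutants and 4.88, 3.88 and 7.28 in daw 3' UTR mutants (3.69 ± 0.42, limma adjusted p = 2.7e-05), and MtnE rose by 3.44. The ferritin chains, which store iron, rose together, Fer1HCH by 0.99 and Fer2LCH by 0.94. The enzymes Sod2 (-0.34) and Cat (-0.30), which remove superoxide and peroxide and were named after their values were seen, fell. Of 19 UDP-glycosyltransferase genes 5 rose and none fell (median 0.37, 26.3% called), led by CG5724 (Ugt37A2, 1.95). Among 59 cytochrome P450 genes 13 rose and 9 fell (median 0.10, 37.3% called), and 13 in place of 22 were called without replicate 2 of the double mutants.

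Of 31 proteasome genes 14 rose and none fell (median 0.32), so 45.2% were called against 30.6% of all genes. Rpn5 (0.56 ± 0.11) and Rpt1 (0.51 ± 0.13), subunits of the regulatory particle, and Prosalpha4 (0.51 ± 0.12) of the core had limma adjusted p-values of 0.00185, 0.00997 and 0.00468. The changes were small and the count unstable: 4 genes were called without replicate 2 of the double mutants, 6 without their replicate 1, 7 and 6 without replicates 1 and 3 of the daw 3' UTR mutants, 10 by DESeq2 and 9 after upper quartile scaling. Of 14 chaperone and heat shock genes, 3 were higher and 1 lower (median 0.10), a called share of 28.6% that is near that of all genes. The small heat shock gene Hsp23 had 67.6, 63.2 and 59.7 normalised reads in double mutants and 7.33, 3.88 and 21.8 in daw 3' UTR mutants (2.72 ± 0.47, limma adjusted p = 0.000685), whereas l(2)efl, an alpha-crystallin gene, fell (-0.65). Of 23 autophagy genes 2 rose and 2 fell, a called share of 17.4% that is below that of all genes (median 0.04, and of opposite sign after upper quartile scaling).

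Genes of the contractile apparatus changed in both directions. Of 38 sarcomere genes 17 rose and 7 fell (median 0.35), so 63.2% were called against 30.6% of all genes. Act88F, the actin of the indirect flight muscles, had 27153, 18557 and 19952 normalised reads in double mutants, against 6201, 2870.4 and 3006 in daw 3' UTR mutants and 4816, 4435 and 2969.9 in WT. Every double mutant library lay far above every other library (2.52 ± 0.31, limma adjusted p = 5.23e-05). Mhc, the muscle myosin heavy chain, had 49713, 31820.4 and 43184 in double mutants, 26091, 18998 and 17324 in daw 3' UTR mutants and 20889, 19198 and 17877 in WT (1.00 ± 0.19, limma adjusted p = 0.0013). Genes of the thin filament rose with them, among them troponin T (up, 0.87), troponin C (TpnC41C, 0.79) and Act57B (0.56), and, named after their values were seen, Act79B (1.08) and tropomyosin Tm1 (1.04). Other genes of the list fell. Mf, myofilin of the thick filament, had 14937, 17603 and 18025 normalised reads in double mutants, 32214, 36105 and 32411 in daw 3' UTR mutants and 41119.8, 43245 and 44982 in WT (a fall of 1.00 ± 0.10 on the log2 scale, limma adjusted p = 7.34e-06). Zasp66, a Z-disc protein, had 3879.8, 4189.7 and 4277 in double mutants, 8830.4, 8614 and 6939 in daw 3' UTR mutants and 10489, 11042 and 9648 in WT (-0.97 ± 0.10, limma adjusted p = 1.34e-05). The titin-like genes bt (-0.69) and sls (-0.63), tmod, which caps the thin filament (-0.61), sals (-0.59) and Mlp84B (-0.58), all named after their values were seen, fell too, whereas the Z-disc gene Actn, likewise named after its value was seen, rose (0.49). Summed reads of the 10 muscle markers were 115392 to 160746 in double mutants, 78646 to 106214 in daw 3' UTR mutants and 83949 to 102600 in WT. Act88F and Mf lie 1.37 and 1.10 megabases from foxo on chromosome 3R. Whether variants linked to the foxo allele differ at these genes was not tested.

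**Figure D3:**
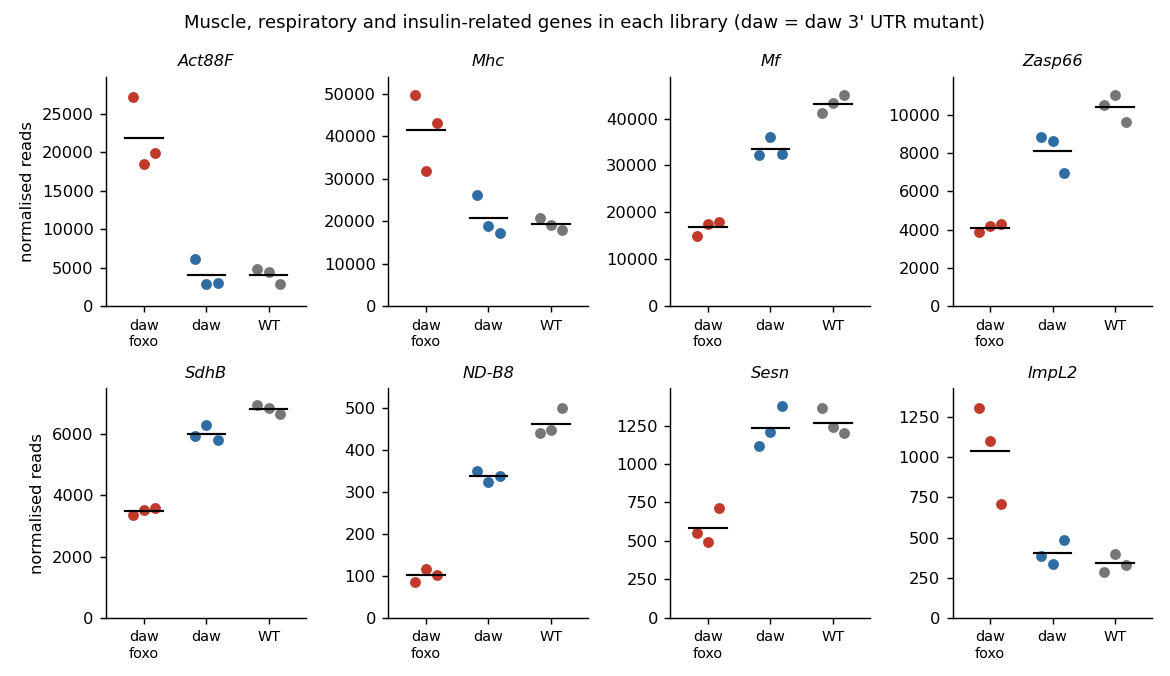
Normalised reads (linear axis from 0) of 8 genes in each library of double mutants, daw 3' UTR mutants and WT, with 1 point per library and a bar at the mean. Act88F, Mhc and ImpL2 are higher and Mf, Zasp66, SdhB, ND-B8 and Sesn lower in every double mutant library than in every daw 3' UTR library.

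Nuclear genes of oxidative phosphorylation fell as a group. Of 67 tested genes 40 fell and 1 rose (median -0.34), which is 59.7% called lower against 16.2% of all genes, and 60 had a negative log2 change. By complex, a division made after the values were seen, 20 of 33 genes of complex I fell, 4 of 4 of complex II, 3 of 8 of complex III, 6 of 7 of complex IV and 6 of 12 of the ATP synthase. SdhB, the iron-sulphur subunit of succinate dehydrogenase, had 3355, 3536 and 3585 normalised reads in double mutants, against 5947, 6287 and 5813 in daw 3' UTR mutants and 6953, 6867 and 6652 in WT (-0.78 ± 0.08, limma adjusted p = 1.54e-05). The catalytic subunit SdhA changed by -0.64 and COX8, of cytochrome c oxidase, by -0.61. ND-B8, a small subunit of complex I, had the largest fall of the list, with 85.4, 117 and 101 in double mutants, 350.4, 323 and 338 in daw 3' UTR mutants and 439, 447 and 499.8 in WT (-1.74 ± 0.12, limma adjusted p = 3.49e-07). COX7A, named after its value was seen, was the single gene that rose (0.33). Mitochondrial genes are not listed in the table. Of 73 mitochondrial ribosomal protein genes 6 fell and none rose (median -0.10, 8.22% called). Of 84 cytosolic ones 2 rose and 3 fell (median 0.04, negative after upper quartile scaling, 5.95% called). Both shares lay below the 30.6% of all genes. Mitochondrial ribosomal genes that fell included mRpL18 (-1.03), mRpL42 (-0.88) and mRpL23 (-0.87).

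Among 24 genes of lipid storage and fatty acid use 13 fell and 1 rose (median -0.47), so 58.3% were called against 30.6% of all genes. They included whd, the carnitine palmitoyltransferase that admits fatty acids to mitochondria (-0.58 ± 0.11), and the beta-oxidation enzymes Thiolase (Mtpbeta, -0.48 ± 0.09) and scu (-0.60 ± 0.12). FASN1, fatty acid synthase (-0.59), the lipid droplet protein Lsd-2 (-0.67) and mdy, which makes triglyceride (-0.75), named after their values were seen, fell as well. Summed reads of the lipid list were 23746 to 32585 in double mutants, 33749 to 36733 in daw 3' UTR mutants and 29322 to 31888 in WT. Double mutants thus overlapped with WT in these sums, and the list median for double mutants over WT was -0.14. Of 20 glycolysis and glycogen genes 8 fell and 3 rose (median -0.16, 55.0% called). Aldolase (Ald, -0.58), Gapdh1 (-0.54) and Pgi (-0.47) fell. ImpL3 (Ldh), lactate dehydrogenase, had 213, 184 and 85.1 normalised reads in double mutants and 59.8, 48.5 and 55.5 in daw 3' UTR mutants (1.44 ± 0.25, limma adjusted p = 0.000759). Of 10 amylase and maltase genes 5 fell and 1 rose (median -0.65, 60.0% called). Without replicate 3 of the double mutants 5 fell and none rose. The maltase Mal-B1 had 17.7, 20.4 and 37.7 in double mutants, 105, 135 and 249 in daw 3' UTR mutants and 313, 171 and 139.9 in WT, with no overlap between double mutants and either other group (-2.62 ± 0.39, limma adjusted p = 0.000231). Mal-A8 (-1.80) and Mal-B2 (-1.02) fell too. Only 1 of 13 digestive protease genes passed (Jon25Bii, 0.97, median of the list -0.12), and its call was lost in each of the 6 fits that left out 1 library (limma adjusted p up to 0.161). Without replicate 3 of the double mutants 2 genes of this list fell and none rose (median -0.29).

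Of 33 V-ATPase and lysosome genes 6 rose and 7 fell (median -0.04, positive with edgeR), so 39.4% were called against 30.6% of all genes. Those that fell were all subunits or accessory proteins of the V-ATPase proton pump, such as Vha44 (-0.55) and Vha68-1 (-0.53). The genes that rose were 1 pump subunit, Vha100-1 (0.29), and genes of the lysosome itself, among them Npc2a, a sterol carrier (1.14), and the proteases Cp1 (0.59) and CtsB1 (0.57). Vha100-1, Cp1 and CtsB1 were named after their values were seen. The clock list had 2 of 12 genes lower (16.7% called), the microRNA pathway 1 of 13 higher and 2 lower (23.1%), and the eye pigment list 2 of 12 lower (16.7%). Each of these shares lay below that of all genes. Without replicate 3 of the double mutants the microRNA list had 3 genes lower and none higher.

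Markers of some other cell types that dissected muscle can carry also moved. Of 16 neuron and glia markers 15 fell and none rose (median -0.73), Syx1A being the exception (-0.16). That is 93.8% called lower against 16.2% of all genes. The sodium channel gene para had 182, 189 and 271 normalised reads in double mutants, against 464, 411 and 459 in daw 3' UTR mutants and 448, 428 and 452 in WT (-1.07 ± 0.14, limma adjusted p = 9.24e-05). Syt1 (-0.90) and nSyb (-0.76), of synaptic vesicles, and Gad1 (-0.71), which makes GABA, fell as well. Summed reads were 3733 to 4488 in double mutants, 6119 to 7315 in daw 3' UTR mutants and 6463 to 7558 in WT, without overlap. Oenocyte markers, of the cells that make cuticular hydrocarbons, fell for 6 of 7 genes (median -0.77, 85.7% called lower), including Cyp4g1 (-0.86) and the elongase eloF (-0.98). Summed oenocyte marker reads were 10307 to 13334 in double mutants, 18598 to 20537 in daw 3' UTR mutants and 13203 to 17557 in WT. The daw 3' UTR sums thus lay above every WT sum, and the double mutant range overlapped with that of WT. Fat body markers were mixed, with 2 of 12 higher and 4 lower (median -0.20), so 50.0% were called against 30.6% of all genes. Lsp1beta, a storage protein, rose by 2.53. Its call was lost without replicate 1 or 2 of the daw 3' UTR mutants or replicate 2 of the double mutants (limma adjusted p up to 0.115). Gut markers gave 2 higher and 1 lower of 16 (median -0.10), a called share of 18.8% that is below that of all genes. Without replicate 3 of the double mutants none of them was higher and 3 were lower (median -0.17). Malpighian tubule markers gave 3 higher and 1 lower of 8 (median 0.08, 50.0% called). None of the 8 eye markers passed (median -1.62, and -0.31 without replicate 3 of the double mutants). Their levels spread widely within groups, as shown by the opsin ninaE, chosen after its values were seen, with 109.8, 420.3 and 2.63 in double mutants, 587, 177 and 227 in daw 3' UTR mutants and 1151, 174 and 21.2 in WT. Defining muscle genes such as Mhc were among the most abundant listed above, as the label muscle calls for, but fat body markers were abundant too, with sums of 139400 to 224341 in double mutants, 123156 to 145882 in daw 3' UTR mutants and 120764 to 145331 in WT. The fat body list includes yolk protein genes. A separate list of yolk protein, sex splicing and dosage genes summed to 112853 to 183255 in double mutants. Its sums were 87246 to 102517 in daw 3' UTR mutants and 85060 to 113384 in WT. The part of the other cell types named above in the changes of other genes was not tested.

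**Figure D4:**
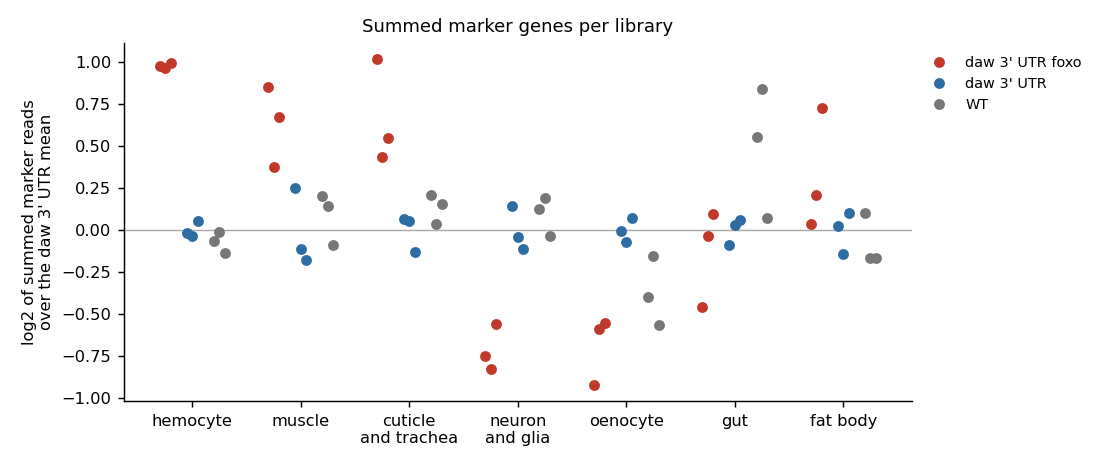
Log2 of summed normalised reads of each marker list, relative to the daw 3' UTR mean, with 1 point per library of double mutants, daw 3' UTR mutants and WT. Hemocyte, muscle and cuticle and trachea sums are higher, and neuron and glia and oenocyte sums lower, in all 3 double mutant libraries than in all 3 daw 3' UTR libraries.

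Some of the remaining largest falls encode signalling and secreted proteins. htl, the FGF receptor Heartless of the mesoderm, had 23.3, 31.1 and 29.8 normalised reads in double mutants, 128, 92.1 and 88.3 in daw 3' UTR mutants and 108, 129.6 and 97.5 in WT (-1.83 ± 0.17, limma adjusted p = 5.07e-06). Obp19d, an odorant-binding protein gene, was 2.83-fold lower, and on the log2 scale plx fell by 1.55 and NnaD by 1.62. The largest fall was that of Cyp4e3, a cytochrome P450, with 12.2, 5.84 and 10.5 in double mutants, 276, 221 and 792 in daw 3' UTR mutants and 9.99, 31.5 and 6.25 in WT. Of these 3 groups only the daw 3' UTR mutants had a raised level, with log2 changes of -5.17 for double over daw 3' UTR mutants and 4.73 for daw 3' UTR mutants over WT (limma adjusted p = 1.1e-05 and 0.000116). Cyp9b2, another cytochrome P450, was low in daw 3' UTR mutants, with 226, 218 and 169 in double mutants, 80.6, 76.6 and 90.1 in daw 3' UTR mutants and 328, 260.4 and 319.9 in WT. Its double mutant values lay between those of the other groups, above daw 3' UTR mutants and below WT. The amylase gene Amy-d had 37.7, 38.9 and 32.5 in double mutants, 87.9, 77.5 and 104 in daw 3' UTR mutants and 2255, 2232 and 947 in WT, lowest in the double mutants and far below WT in both mutants. For 5 genes described above, chosen after their values were seen, the log2 change of daw 3' UTR mutants over WT was 0.25 for PGRP-SA, -0.08 for Act88F, -0.05 for Sesn, -0.18 for SdhB and -0.45 for Ilp6, and none of these passed in limma (adjusted p = 0.76, 0.952, 0.927, 0.343 and 0.639).

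The same foxo allele was set against its own control in 2 further comparisons with no library in common with the one above. In foxo mutants against WT, limma called 988 of 8357 genes (11.8%, with 5.54% higher and 6.28% lower), and in miR252 foxo double mutants against miR252 mutants it called 1583 (18.9%, with 9.45% higher and 9.49% lower). Among 8071 genes tested in both tables, 597 were called the same way in double against daw 3' UTR mutants and in foxo mutants against WT. That is 24.0% of the 2490 genes called in the first and 62.3% of the 958 called in the second, and 24 genes were called in opposite directions. With foxo loss in miR252 mutants 969 were shared in direction (38.9% of 2490 and 63.1% of 1536) and 30 were opposite. In all 3 comparisons 382 genes were called the same way, 161 higher and 221 lower, while 1261 were called in double against daw 3' UTR mutants and in neither other comparison. Across genes the log2 changes correlated at 0.57 with foxo mutants against WT and at 0.64 with miR252 foxo double mutants against miR252 mutants, where genes are not independent and share a tissue, age and sex. In the authors' deposited table for axenic flies 586 of 9371 genes passed (6.25%, with 3.01% higher and 3.24% lower), and 337 of the genes called here passed there in the same direction, which is 13.6% of 2481 and 62.2% of 542.

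**Figure D5:**
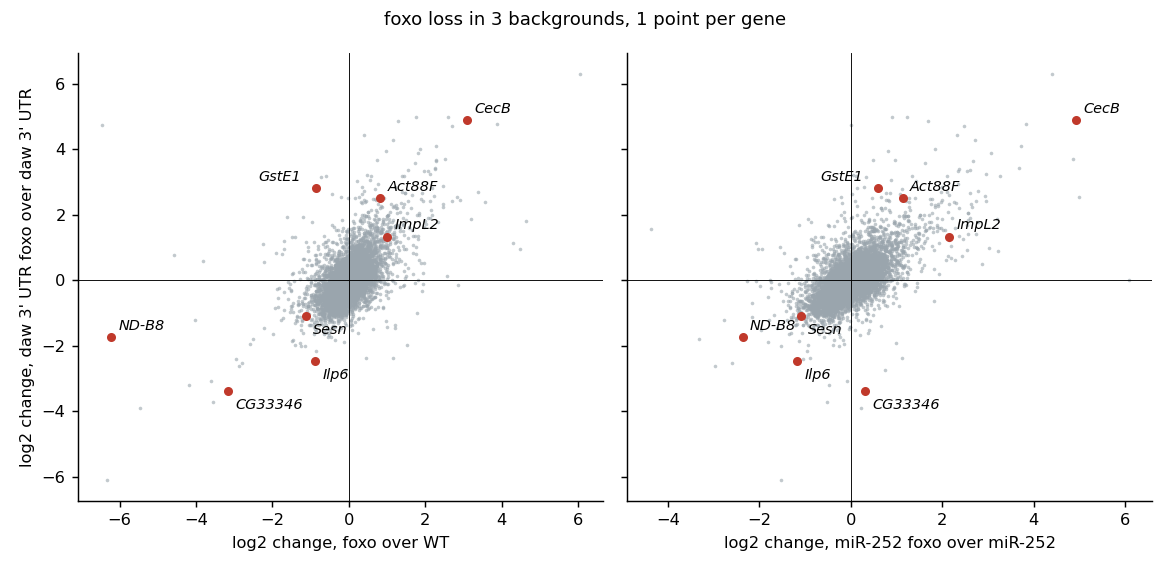
The vertical axis is the log2 change in double over daw 3' UTR mutants. The horizontal axes are the log2 change in foxo mutants over WT (left) and in miR252 foxo double over miR252 mutants (right). Each point is 1 gene tested in both tables. Sesn, ND-B8 and Ilp6 lie below 0 and ImpL2 and Act88F above 0 on all axes. GstE1 lies high on the vertical axis and below 0 for foxo mutants over WT.

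In oxidative phosphorylation 36 of 64 genes fell in foxo mutants against WT (median -0.42) and 44 of 64 in miR252 foxo double against miR252 mutants (median -0.45), with none higher in either. Of all genes, 6.28% were called lower in the first of these comparisons and 9.49% in the second. The shares called in either direction were 11.8% and 18.9%. Other lists of metabolism and signalling were mixed there. Of 30 members of the insulin and FoxO list, foxo mutants had 4 higher and 2 lower, and miR252 foxo double mutants 2 higher and 6 lower. Of 23 members of the lipid list, 8 were lower and none higher in foxo mutants, and 3 lower and 2 higher in miR252 foxo double mutants. In the authors' deposited table for axenic flies 15 of 66 oxidative phosphorylation genes were lower (median -0.36), and 2 of 24 genes of the lipid list (median -0.21). Of all genes there, 3.24% were lower. Among single genes, Sesn changed by -1.13 in foxo mutants over WT and by -1.09 in miR252 foxo double over miR252 mutants, and ImpL2 by 1.00 and 2.15 (limma adjusted p = 5e-07, 1.55e-06, 0.0001 and 1.74e-08). For Ilp6 the changes were -0.88 and -1.17, and for Mal-B1 -2.88 and -2.96 (limma adjusted p = 0.00459, 0.00024, 0.000204 and 0.000111). In the authors' deposited table for axenic flies the log2 changes were -0.82 for Sesn, 1.42 for ImpL2 and -1.26 for Ilp6.

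Immune genes were called in fewer members elsewhere, where a smaller share of all genes was called too. In double against daw 3' UTR mutants 14.4% of all genes were called higher and 16.2% lower. The shares were 5.54% and 6.28% in foxo mutants against WT, and 9.45% and 9.49% in miR252 foxo double against miR252 mutants. For axenic flies they were 3.01% and 3.24% in the authors' deposited table. Of 28 antimicrobial peptide genes, 4 rose and 1 fell in foxo mutants against WT (median 1.16), and 12 rose in miR252 foxo double against miR252 mutants (median 2.05). In the authors' deposited table for axenic flies 2 of 29 were higher and 3 lower (median 0.04). Of 34 Imd and Toll genes, 5 rose and 1 fell in foxo mutants, while 10 rose and 1 fell in miR252 foxo double mutants. Hemocyte markers rose in 6 and 9 of 15 cases with none lower, and in 5 of 15 in the authors' deposited table for axenic flies. Proteasome genes gave 0 of 31 calls in foxo mutants against WT and 18 of 31 higher in miR252 foxo double mutants. Neuron and glia markers fell in 4 and 7 of 16 cases. Differences in these counts between backgrounds were not tested, since the tables were normalised separately. Sarcomere genes gave 6 higher and 2 lower of 38 in foxo mutants and 4 higher and 8 lower in miR252 foxo double mutants. Act88F itself changed by 0.82 in foxo mutants over WT and by 1.14 in miR252 foxo double over miR252 mutants (limma adjusted p = 0.00282 and 9.41e-05), against 2.52 in the daw 3' UTR background, and by -0.08 in the authors' deposited table for axenic flies.

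The 6 genes that led the overlap with foxo mutants against WT were ND-B8, CG33346, CG11893, CG16758, CG17364 and CG6654, all of them lower. ND-B8 had 3.32, 6.77 and 2.09 normalised reads in foxo mutants, against 300.2, 456 and 318 in WT of that set, a log2 change of -6.23 beside -1.74 in the daw 3' UTR background. In the same set it had 2.52, 3.68 and 2.41 in miR252 foxo double mutants and 11.5, 44.2 and 12.6 in miR252 mutants, so it was below WT there without the foxo allele too. CG11893 had 7.76, 7.78 and 7.9 in daw 3' UTR foxo double mutants and 118, 176 and 106 in daw 3' UTR mutants (-3.90 ± 0.29, limma adjusted p = 7.54e-07). In the other set it had 3.32, 0.967 and 5.24 in foxo mutants, 6.71, 8.27 and 5.62 in miR252 foxo double mutants, 4.17, 7.37 and 5.82 in miR252 mutants and 184, 161 and 153 in WT, so of these groups only WT was high. WT was likewise the highest of these groups for CG6654 and CG17364. CG6654 lies 1.14 megabases from foxo and had 35.4, 41.6 and 39.8 in foxo mutants, 37.8, 31.3 and 36.9 in miR252 foxo double mutants, 41.7, 47 and 51.4 in miR252 mutants and 106, 99.8 and 112 in WT. CG33346 differed from these, with 55.3, 40.6 and 38.8 in foxo mutants, 553, 607 and 629.6 in miR252 foxo double mutants, 530.5, 529.5 and 396 in miR252 mutants and 476, 407 and 339 in WT. Of these groups of that set it was low in foxo mutants alone, and in the first set it had 34.4, 44.8 and 41.3 in daw 3' UTR foxo double mutants and 400.4, 414 and 455 in daw 3' UTR mutants.

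Called genes were spread over the genome. The called share was 30.6% on chromosome arm 2L, 29.2% on 2R, 29.0% on 3L, 32.6% on 3R and 30.9% on X. Within 1 megabase of foxo it was 30.6% (34 of 111 genes), within 5 megabases 33.1%, and on the rest of 3R 32.3%. Chromosome 4 stood apart in direction, with 33 of 76 genes called (43.4%), 31 of them lower, and a median log2 change of -0.26. Its median against the daw 3' UTR mean was -0.28, -0.29 and -0.20 in the 3 double mutant libraries, 0.03, 0.01 and -0.04 in the daw 3' UTR libraries and 0.09, 0.14 and 0.08 in WT. In the other set the chromosome 4 median was -0.10 in foxo mutants over WT and -0.26 in miR252 foxo double over miR252 mutants.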

How the data were processed

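RNA of adult female muscle was extracted with Trizol and polyadenylated RNA was made into libraries with an NEBNext Ultra kit, per the labels' protocols. Per the submitters' processing notes the tools were STAR, HTSeq and DESeq and the build was dm6, with no version or order stated. Strand use in counting was not given in the sources used here. The deposited signal is a normalised read count for each gene, scaled within each table by the authors. The authors' deposited table for axenic flies gives a log2 fold change and an adjusted p-value per gene, and no test was fitted to it. Dividing the normalised values by the value of 1 read gave whole reads for 100% of values within 0.01, and 2358162 to 4078819 reads per library over both tables used.

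Normalised values plus a pseudocount of 1 were put on the log2 scale and tested with limma-trend (limma 3.58.1 in R 4.3.3), for genes with a table mean of at least 10 and with every group of the table fitted together. Fold changes on this scale understate those of low genes. Benjamini-Hochberg adjusted p-values under 0.05 over all genes tested were called. Gene names came from the tables, with 37 names missing there taken from Ensembl and FlyBase names, and positions from the Ensembl BDGP6 annotation. Each table was tested alone.

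Members, gene lists and tests were chosen with earlier results of these data known. Named genes were those of the study, the 10 largest rises and 10 largest falls whose libraries did not overlap (50 or more normalised reads on average where higher, CG and CR numbers left out), up to 4 called members per list with the smallest adjusted p, and the 6 genes that led the overlap with foxo mutants against WT. Others are named as chosen after their values were seen. Scripts were tested on simulated data. Alternatives were whole reads tested with edgeR (4.0.16) or DESeq2 (1.42.0), a pseudocount of 8, no filter, upper quartile scaling (75% point), only the 2 groups compared, a replicate block, and fits that each left out 1 library.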

Additional observations from a re-analysis of the deposited data

Results flagged for a closer look

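For GstE1 and GstS1, glutathione S-transferases, every daw 3' UTR foxo double mutant library lay above every daw 3' UTR library, while every foxo library of the other set lay below every WT library. GstE1 had 1926, 1508 and 864 normalised reads in daw 3' UTR foxo double mutants and 169.7, 179 and 238 in daw 3' UTR mutants, a log2 change of 2.81. In the other set it had 57.5, 55.1 and 61.8 in foxo mutants and 114, 118 and 89.4 in WT, a log2 change of -0.86 (limma adjusted p = 0.0325). In the third background it had 116, 138 and 137 in miR252 foxo double mutants and 65.7, 122 and 79.6 in miR252 mutants, a log2 change of 0.59 that did not pass (limma adjusted p = 0.121), and in the authors' deposited table for axenic flies its log2 change was 0.11. GstS1 had 6643, 3676 and 4248 in double mutants and 3031, 1759.8 and 1907 in daw 3' UTR mutants (log2 change 1.12), against 2051, 1936 and 2102 in foxo mutants and 2259.8, 2355 and 2937 in WT of the other set (log2 change -0.30, limma adjusted p = 0.0813), which did not pass. In miR252 foxo double over miR252 mutants the log2 change of GstS1 was -0.17 (limma adjusted p = 0.317). In the authors' deposited table for axenic flies GstS1 was lower, with a log2 change of -0.54 that passed there. The difference between backgrounds was not tested for either gene, since the 2 tables were normalised separately.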

How the results depend on the processing

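The count of genes called in double against daw 3' UTR mutants, 2532 in limma, was 2558 with edgeR, 2122 with DESeq2, 2662 with no filter, 2573 with only the 2 groups compared, 2561 with a pseudocount of 8, 2589 (1064 higher, 1525 lower) after upper quartile scaling and 1817 to 2607 when single libraries were left out. With the replicate block it was 2454, and the blocked count of miR252 foxo double against miR252 mutants was 1630. Same-numbered libraries did not deviate together (correlations -0.01 to 0.05 for the first pair of groups and -0.08 to 0.04 for the second, 3 pairs each), so the numbers were not taken as pairs. Leaving out single libraries gave 608 to 834 calls in foxo mutants against WT (608 without WT replicate 3), 959 to 1695 in miR252 foxo double against miR252 mutants (959 without miR252 replicate 3 and 961 without double mutant replicate 3), and 499 to 554 genes shared in direction in place of 597. Of 141 named genes 137 were called, and 110 of these were called under each of the 13 alternatives. None reversed, and 27 lost their call in at least 1. Of 455 list counts over all lists and alternatives, 62 moved by more than 1.5 times, and of 455 list medians 10 moved. In some lists the fewest called members left after omitting 1 library were under the full count by over 1.5 times, with 2 of 4 for autophagy, 3 of 5 for UDP-glycosyltransferases and 2 of 6 for fat body markers (daw 3' UTR replicate 1 among others), 2 of 4 for JNK genes and 1 of 3 for gut markers (daw 3' UTR replicate 2), 2 of 4 for Malpighian tubule markers (daw 3' UTR replicate 3) and 2 of 5 for cytosolic ribosomal proteins (double mutant replicate 1). Other libraries gave the same minimum in all of these lists but the ribosomal one. A planned search for FoxO motifs in promoters was not run. Depth limits genes under about 10 normalised reads.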

Other observations

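Among the 24 genes called in opposite directions in double against daw 3' UTR mutants and in foxo mutants against WT, 18 were higher in the first. The gene with the smallest adjusted p was CG32581, which had 32.2, 35.0 and 29.0 normalised reads in double mutants, 0, 0 and 0.91 in daw 3' UTR mutants and 51.0, 55.7 and 46.2 in WT. In the other set it had 89.8, 86.8 and 84.2 in WT, and 0 in every library of foxo, miR252 foxo double and miR252 mutants. Ubi-p5E, a polyubiquitin gene and the next in order, had 1205, 1097 and 992 in double mutants, 265, 289 and 307 in daw 3' UTR mutants and 1045, 1112 and 822 in WT. In the other set Ubi-p5E had 470.2, 410.2 and 531 in foxo mutants, 449.8, 444 and 482 in miR252 foxo double mutants, 463, 444 and 447 in miR252 mutants and 1495, 1516 and 1308 in WT. For CG32581 the daw 3' UTR foxo double mutants thus lay above daw 3' UTR mutants and below every WT library, and for Ubi-p5E they overlapped with WT. The foxo, miR252 and miR252 foxo double mutants of the other set lay below WT for both genes.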
